A study of Homo sapiens with 1 sample.

Results

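Imprinted genes, 10 in number, were examined in human neural progenitor cells: the growth factor genes IGF2 and DLK1, the noncoding RNA genes H19 and MEG3, and PEG3, PEG10, MEST, NDN, PLAGL1 and CDKN1C. They were chosen by name, with no measured value in the rule, though earlier results of these data were known. Of the 10 genes, 9 had a row among the 33538 genes of the table. No row matched H19 by its symbol or its gene identifier, and it was not analysed here. Of the 9, 7 had at least 200 UMIs (unique molecular identifiers, each standing for 1 captured RNA molecule), IGF2 had 36, and PEG3 had 0.

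The data came from 1 single-cell RNA-seq library, hHAR123, made with a droplet 3′ kit from H9 cells, a long-established human embryonic stem cell line. HAR123 is a human accelerated region. The genotype was WT, and the cells had been driven towards neural progenitor cells (NPCs) with dorsomorphin and SB431542, inhibitors of BMP and of TGF-β/activin signalling. Independent clones of the genotype had been pooled before loading and were collected ahead of rosette selection, so clones could not be told apart and the culture was not purified for rosettes. There was no second library: cells are not replicates, no test was run, and every 95% interval given here covers counting error only.

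At an imprinted gene most RNA comes from the copy of a given parent, under the control of methylation laid down in the germ line. Imprinted genes lie in clusters under shared control regions, and many act on fetal growth, on the exit of precursor cells from the cell cycle and on the development of the brain. DLK1 and MEG3 lie in one such cluster on chromosome 14, IGF2, H19 and CDKN1C lie in neighbouring clusters on chromosome 11, PEG10 and MEST lie apart on chromosome 7, and NDN lies in the Prader-Willi region of chromosome 15. UMI counts do not tell the parental copies apart, and neither allele nor methylation was measured.

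The stretches of DNA ahead of the RefSeq starts of MEG3 and NDN are shown here because, of the measured genes with a listed promoter, MEG3 had the widest and NDN the narrowest spread over cells. Each line holds 250 bases of build GRCh38.p14, 5′ to 3′ on the strand of the gene, and capitals mark each CG, the dinucleotide that carries methylation. The MEG3 stretch, chr14:100825858-100826107 on the plus strand, is the first of 3 starts listed for the gene. The NDN stretch, chr15:23687306-23687555 on the minus strand, is the only one listed.
MEG3: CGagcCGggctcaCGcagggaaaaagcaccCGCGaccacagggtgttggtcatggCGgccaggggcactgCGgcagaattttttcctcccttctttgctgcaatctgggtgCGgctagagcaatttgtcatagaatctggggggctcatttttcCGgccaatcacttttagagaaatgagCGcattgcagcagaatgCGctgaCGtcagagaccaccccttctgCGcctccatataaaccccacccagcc
NDN: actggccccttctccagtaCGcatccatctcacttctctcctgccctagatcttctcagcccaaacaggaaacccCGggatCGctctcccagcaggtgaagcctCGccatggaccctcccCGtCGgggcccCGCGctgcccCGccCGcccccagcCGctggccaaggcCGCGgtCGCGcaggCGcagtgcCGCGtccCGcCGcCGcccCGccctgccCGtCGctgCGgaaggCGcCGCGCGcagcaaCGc
The MEG3 stretch held 13 CG dinucleotides and the NDN stretch 30, beside a median of 11 over the same 250 bases of 35116 listed promoters. Of those promoters, 46.6% held as many as MEG3 and 12.4% as many as NDN. Searched on both strands, the letters TGACGTCA, the full cyclic-AMP response element, were found once in the MEG3 stretch, starting 50 bases ahead of its start, and TATAAA was found once, starting 18 bases ahead. The share of all listed promoters with these letters was 1.65% for TGACGTCA and 10.7% for TATAAA. Neither was found in the NDN stretch. Such matches describe the letters and not the use of a site. Promoters were listed for 5 of the 10 genes, namely H19, MEG3, MEST, NDN and PLAGL1.

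In the GENCODE 44 annotation of GRCh38, DLK1 spans chr14:100725705-100738224 and MEG3 chr14:100779410-100861031, both on the plus strand. CDKN1C spans chr11:2883213-2885775 and IGF2 chr11:2129112-2158391 on the minus strand, NDN chr15:23685400-23687305, PLAGL1 chr6:143940300-144064599 and PEG3 chr19:56810077-56840728 likewise on the minus strand. PEG10 spans chr7:94656325-94669695 and MEST chr7:130486171-130506465 on the plus strand, and they overlap SGCE and COPG2 on the other strand. All but MEG3, a long noncoding RNA gene, are annotated as protein-coding. MEG3 shares 0.465% of its exonic bases with MIR493HG on its own strand.

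The library held 14726 cell barcodes, of which 13925 (94.6%) had 2000 to 10000 detected genes and a mitochondrial share below 0.1. These kept cells held 314660383 UMIs, with a median of 17900 and a range of 3167 to 118188 per cell. Clustering gave 11 clusters, which were named from marker genes. The 12302 forebrain NPC-like cells (88.3%, median 17081 UMIs) made SOX2 at 412 CPM (UMIs of a gene per 1000000 UMIs) and SIX3 at 331 CPM. The 1517 contractile NPC-like cells (10.9%, median 48176 UMIs, clusters 6 and 9) passed the naming rule by their contractile genes, and held SOX2 at 113 CPM. Of 9 progenitor markers 6 were lower in them than in forebrain NPC-like cells, with HES5 at 9.80 against 180 CPM, and 3 were higher, with VIM at 4404 against 916 CPM, NES at 661 against 246 CPM and CDH2 at 943 against 763 CPM. All 10 forebrain markers were lower by CPM, with a sum of 488 against 1746 CPM. All 7 cycling markers were lower too, with a sum of 1409 against 1985 CPM. Of 5 epithelial markers 2 were higher and 3 lower, and the list summed to 712 against 194 CPM, most of it KRT8 and KRT18. Of 8 neural crest or mesenchyme markers 5 were higher and 3 lower, and the list summed to 90.0 against 19.2 CPM, with COL1A2 at 70.9 and DCN at 0 CPM in contractile NPC-like cells. The part of these markers in the results below was not tested. The 106 differentiating-progenitor-like cells (0.761%, median 13414 UMIs, cluster 11) had UNCX as the gene furthest above the other clusters. EOMES, NEUROD1 and TBR1, genes of cells that are turning into cortical neurons, came next, and then ST18, LHX9, SGCZ, EBF2, NEUROG1 and CNTNAP5. NEUROD6, also on the marker list of this class, was at 0 CPM. Since 4 of the rows of the 10 genes, and 9 rows of imprinted genes in all, were among the variable genes used for clustering, the clusters are not independent of them, and a clustering without all imprinted genes is covered in the part on processing.

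DLK1, which encodes a membrane-bound and secreted relative of the Notch ligands, was at 1931 CPM (95% interval 1926 to 1936) and stood 51st of 29518 genes with a UMI in kept cells. MEST, which encodes a hydrolase-like protein of the endoplasmic reticulum, was at 236 CPM. PEG10, a gene derived from a retrotransposon that encodes Gag-like and Pol-like proteins, was at 144 CPM. NDN, which encodes the growth-restraining MAGE family protein necdin, was at 77.2 CPM. CDKN1C, which encodes the cell-cycle inhibitor p57, was at 64.2 CPM, and PLAGL1, which encodes a zinc-finger transcription factor, was at 40.9 CPM. MEG3 was at 15.4 CPM (14.9 to 15.8) and ranked 8654th. The kit reads RNA ends and UMIs were not divided by length, so an order of levels between genes is an order of captured UMIs. No interval of these 7 levels overlapped another.

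IGF2, a secreted growth factor abundant in fetal mesenchyme, was near the limit of detection. Its 36 UMIs lay in 28 of the 13925 kept cells, with at most 3 in a cell. Of the 36, 33 were in contractile NPC-like cells and 3 in forebrain NPC-like cells, which gave a ratio of CPM of 35.6 with a counting interval of 11.2 to 181. The symbol had a second row with another gene identifier, which held 0 UMIs, as did the read-through gene INS-IGF2. In GENCODE 44, 37.9% of the exonic bases of the IGF2 row were shared with these same-strand genes, though none of its last 500 exonic bases, so reads in the shared part may have been left uncounted. IGF2-AS, the antisense RNA of the locus, had 10 UMIs, 9 of them in contractile NPC-like cells.

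PEG3, which encodes a zinc-finger protein and is expressed from the paternal copy, had no UMI in any of the 14726 barcodes. A count of 0 in the kept cells allows a counted level of up to 0.00953 CPM (3 counts). ZIM2, which shares 12.9% of the exonic bases of PEG3 but none of its last 500, had 9 UMIs, and MIMT1 of the same locus had 0. In GENCODE 44 the whole span of PEG3 lies within that of ZIM2 on the same strand, so PEG3 reads may have been left uncounted. No PEG3 UMI was counted, while 6 of the 10 genes were found above 40 CPM in the same cells. Whether PEG3 RNA was absent was not tested.

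**Figure D1:**
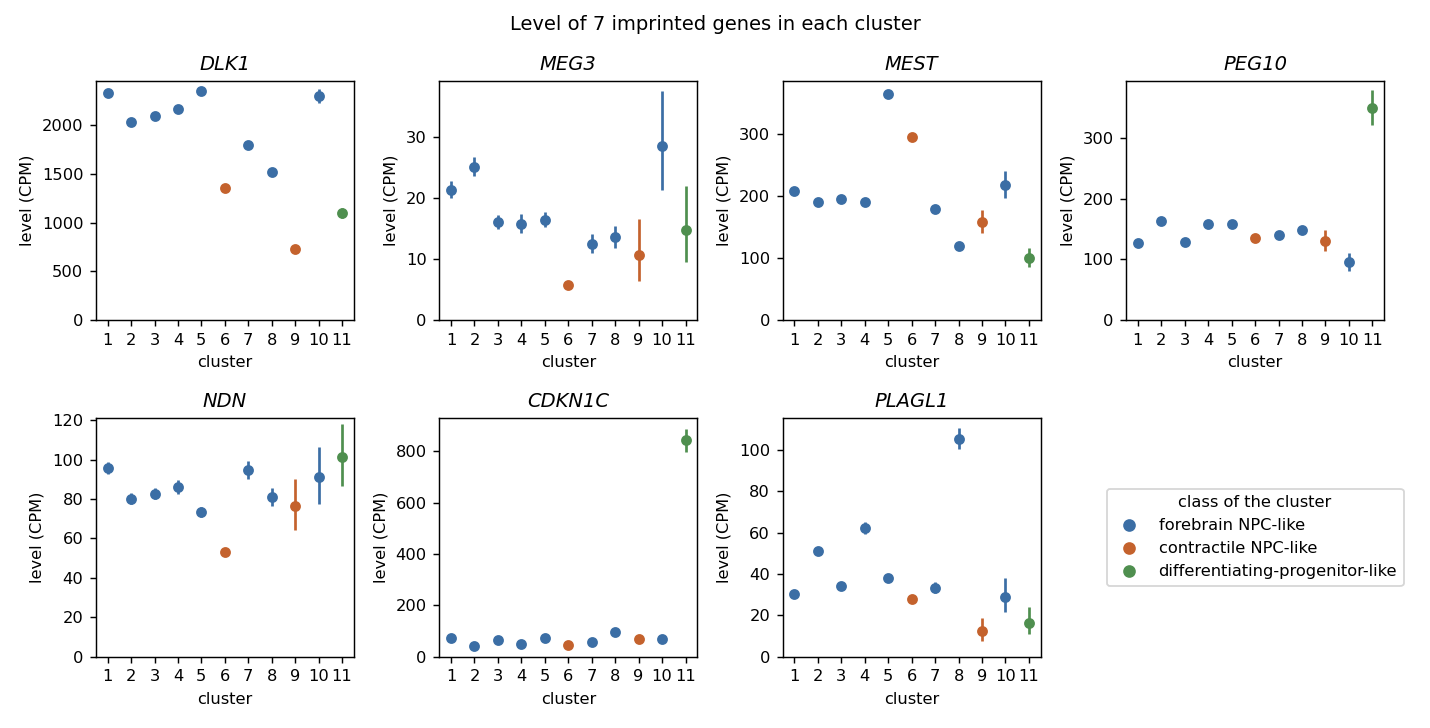
Level of each of the 7 measured genes (y axis, CPM, from 0) in each of the 11 clusters (x axis), with 95% Poisson intervals of counting error and colours for the class of the cluster. DLK1 was above 1500 CPM in all 8 forebrain NPC-like clusters, and CDKN1C stood at 842 CPM in cluster 11 and at or below 95.4 CPM elsewhere.

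DLK1 was found in nearly every forebrain NPC-like cell and in fewer cells of the other classes. Its level was 2121 CPM in forebrain NPC-like, 1337 CPM in the contractile class and 1103 CPM in the differentiating class. Among the forebrain NPC-like clusters it ran from 1524 CPM in cluster 8 to 2353 CPM in cluster 5, and it was 1352 CPM in cluster 6 and 727 CPM in cluster 9. To compare the share of cells with a UMI at equal depth, each cell was thinned at random to 5000 UMIs, which left out 28 shallower cells (19 forebrain, 8 contractile and 1 differentiating). At this depth 99.6% of forebrain NPC-like cells had a DLK1 UMI, against 88.9% (87.2 to 90.5%) of contractile and 69.5% (59.8 to 78.1%) of differentiating-progenitor-like cells. Poisson counts with the same means would give 100.0%, 99.9% and 99.6%. The lower level was thus uneven: in differentiating-progenitor-like cells 73 of 105 cells had a UMI while the mean was 5.50 UMIs per cell, and in cluster 9 the share was 75.0% at a mean of 3.38. Before thinning the shares were 99.9%, 97.3% and 83.0%. No class in this library is known to lack DLK1, so the share that free RNA alone would give was not measured, here or for the other genes.

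MEG3, a noncoding RNA made from the other parental copy at the DLK1 locus, was found in few cells. In the forebrain NPC-like class it was at 18.3 CPM, with the highest levels in cluster 10 (28.5 CPM, 21.2 to 37.5) and cluster 2 (25.1 CPM, 23.6 to 26.6), whose intervals overlapped. In the differentiating class its level was 14.7 CPM (9.43 to 21.9), and at 5.79 CPM (5.25 to 6.36) in contractile NPC-like cells, the lowest of the classes. At 5000 UMIs per cell, 7.71% of all cells had a MEG3 UMI, and the share was 8.24% (7.76 to 8.74%) in forebrain NPC-like and 3.45% (2.58 to 4.50%) in contractile NPC-like cells. Without thinning, 24.9% and 20.8% of cells in these classes had a UMI. MEG3 had the lowest ratio of CPM between contractile and forebrain NPC-like cells of the 7 genes, 0.316 (0.285 to 0.349).

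MEST was the only one of the 7 whose CPM was higher in the contractile class, at 293 CPM against 220 CPM in the forebrain class. The forebrain NPC-like clusters did not share a level. MEST reached 366 CPM in cluster 5, whose leading genes included FGF19 and SIX6, above the 297 CPM of contractile cluster 6, and it was at 119 CPM in cluster 8. At equal depth, 76.5% of cells in cluster 5 and 43.9% of cells in cluster 8 had a MEST UMI. Cells with at least 5 MEST UMIs at that depth numbered 322, of which 121 were in cluster 5 and 96 in cluster 6. In differentiating-progenitor-like cells MEST was at 101 CPM (85.8 to 117).

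PEG10 was at 145 CPM in forebrain NPC-like cells, 135 CPM in the contractile class and 349 CPM (321 to 379) in the differentiating class. Between the 2 large classes the ratio was close to 1, at 0.932 (0.911 to 0.953). In cluster 11 the higher PEG10 level came with an uneven spread, with a UMI in 63.8% of cells at equal depth where Poisson counts would give 85.9%, and with 15 of its 105 cells at 5 or more UMIs. NDN was the steadiest: it lay between 73.2 and 95.6 CPM in the 8 forebrain NPC-like clusters and at 101 CPM (86.4 to 118) in cluster 11, and stood lower only in contractile cluster 6, at 53.3 CPM (51.6 to 55.0). The share of cells with an NDN UMI at equal depth, 34.0%, was near the Poisson share of 34.7%.

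PLAGL1 and CDKN1C were most abundant in the same forebrain NPC-like cluster, cluster 8, and parted in cluster 11. PLAGL1 was at 105 CPM (101 to 110) in cluster 8, where 37.8% of cells had a UMI at equal depth. In the other forebrain NPC-like clusters it ran from 29.1 to 62.1 CPM, and it was at 16.6 CPM (10.9 to 24.1) in cluster 11 and 12.3 CPM in cluster 9. CDKN1C was at 95.4 CPM in cluster 8, from 43.1 to 73.9 CPM in the other forebrain NPC-like clusters, 47.8 CPM in contractile NPC-like cells and 842 CPM (798 to 888) in cluster 11. At equal depth 89.5% (82.0 to 94.7%) of the cells of cluster 11 had a CDKN1C UMI, against 25.1% in forebrain NPC-like and 20.9% in contractile NPC-like cells.

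The 78 cells with 5 or more CDKN1C UMIs at equal depth, a cut chosen after the counts were seen, lay almost wholly in clusters 11 and 8. There were 48 among the 105 cells of cluster 11, 27 among the 1135 of cluster 8, and 1 each in clusters 1, 3 and 9. In cluster 8 the gene was on in fewer cells than in most forebrain NPC-like clusters, 23.8% where Poisson counts would give 39.1%, and a cell held up to 25 UMIs. The 27 cells of cluster 8 with 5 or more had NEUROD1, a neuronal transcription factor, at 66.7 CPM (30.5 to 127) against 0.361 CPM in its other 1108 cells. STMN2, a protein of growing neurites, was at 96.3 CPM (51.3 to 165) against 12.6 CPM, and DCX, a microtubule protein of young neurons, at 311 CPM (224 to 421) against 162 CPM. At that depth the 27 cells had no UMI of EOMES or TBR1, which were at 0 and 0.181 CPM in the other cells. They also had none of MKI67, a marker of cycling cells, which was at 25.6 CPM (21.6 to 30.2) in the other cells. A count of 0 in the 27 cells allows up to 22.2 CPM (3 counts), so a difference in these 3 genes was not detectable. Of 7 mitotic genes, CENPF alone had intervals that did not overlap, at 59.3 CPM (25.6 to 117) against 179 CPM (168 to 191). The other 6 were not told apart at this depth, with CCNB1 at 29.6 against 22.6 CPM and BIRC5 at 14.8 against 44.6 CPM.

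**Figure D2:**
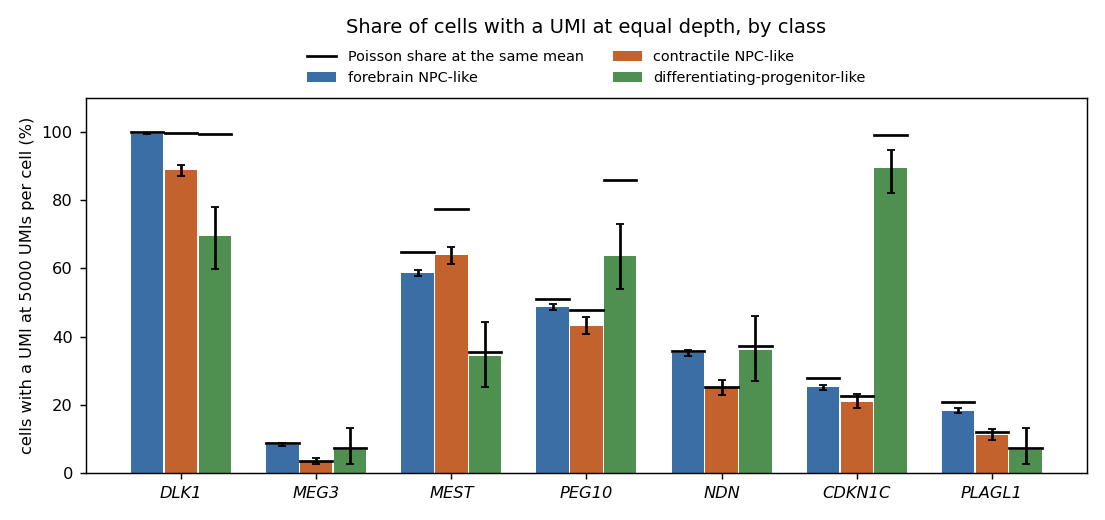
Share of cells with a UMI (y axis, %) of each gene (x axis) after thinning to 5000 UMIs per cell, in 3 classes, with exact 95% binomial intervals, and black lines for the share that Poisson counts of the same mean would give. DLK1 stood at 69.5% in differentiating-progenitor-like cells under a line at 99.6%, while the NDN bars lay close to their lines.

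**Figure D3:**
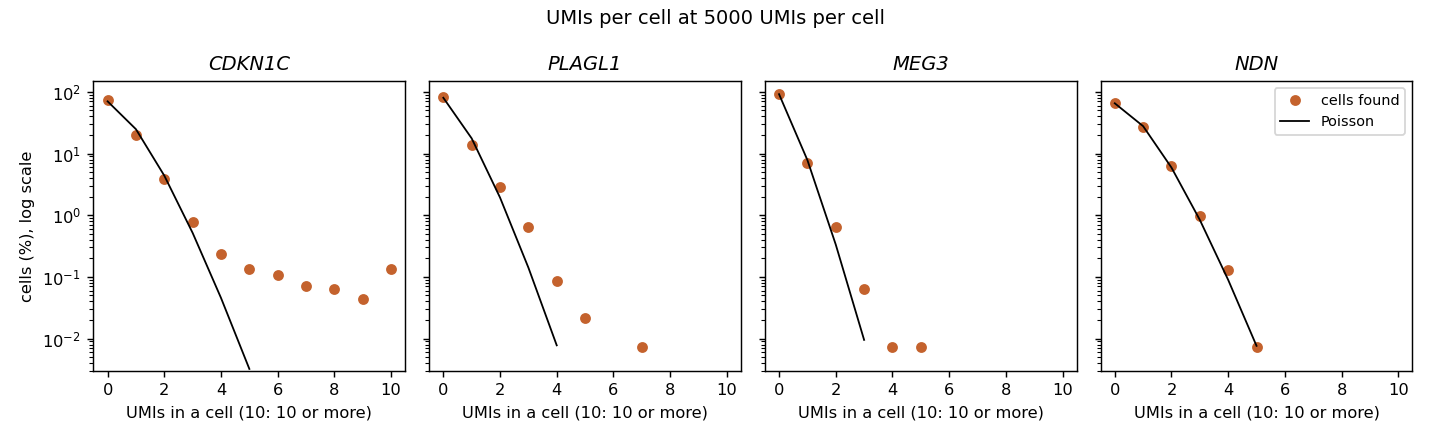
Percent of all kept cells (y axis, log scale) by the number of UMIs of a gene in a cell (x axis) at 5000 UMIs per cell, with points for the cells found and a line for Poisson counts of the same mean. NDN followed the line, while 0.137% of cells had 10 or more CDKN1C UMIs, far off the line.

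Spread over cells beyond counting error was expressed as the extra-Poisson variation of the thinned counts, (variance − mean)/mean², which is 0 for Poisson counts whatever the level. The 7 genes ran from 0.10 for NDN, 0.19 for DLK1, 0.32 for PEG10 and 0.55 for MEST to 1.35 for PLAGL1, 1.63 for MEG3 and 3.72 for CDKN1C. Thus 3 of the 7 reached 1, beside 11.7% of the 10034 genes with a thinned mean of at least 0.05, and the median was 0.55 for the 7 and 0.23 for all these genes. Within forebrain NPC-like cells alone CDKN1C, MEG3 and PLAGL1 again reached 1, beside 9.69% of 10021 genes, at 2.09, 1.54 and 1.29. The MEG3 value was not steady: it was 0.70 after thinning to 2500 UMIs, and it rested on 101 cells with more than 1 UMI. Other values moved without crossing 1. Over all settings NDN ran from 0.0485 to 0.124, PEG10 from 0.211 to 0.337 and CDKN1C from 2.09 to 4.72. For CDKN1C the value was 8.05 in cluster 8, and from 0.27 to 1.60 in each of the other 10 clusters.

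**Figure D4:**
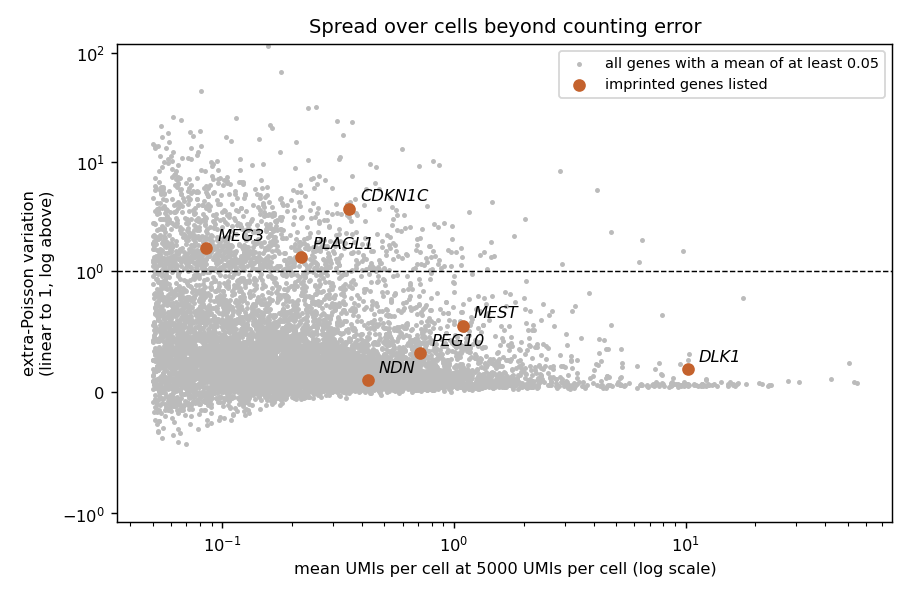
Extra-Poisson variation (y axis, linear to 1 and log above) against the mean UMIs per cell at 5000 UMIs per cell (x axis, log scale), for all 10034 genes in grey and the 7 imprinted genes in orange. CDKN1C, MEG3 and PLAGL1 lay above the dashed line at 1 and NDN lay at 0.10.

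Differences between the 11 clusters held 35.0% of the extra-Poisson variance of CDKN1C, 22.2% for NDN, 19.2% for MEST, 18.4% for PLAGL1, 17.2% for DLK1, 10.6% for PEG10 and 5.32% for MEG3, beside a median of 17.8% over all genes. For all 7 genes most of the extra-Poisson variance thus lay within clusters. Since clusters are built from the same counts, these shares are a description.

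Between classes, 1 of the 7 genes (MEG3) had a CPM at least 2-fold lower in the contractile class than in the forebrain class, beside 22.3% of 16780 genes with at least 200 UMIs, and 0 of 7 were at least 2-fold higher, beside 7.36%. The ratios of the other 6 were 1.33 for MEST, 0.932 for PEG10, 0.749 for CDKN1C, 0.639 for NDN, 0.630 for DLK1 and 0.608 for PLAGL1, with a median of 0.639 for the 7 and 0.788 for all genes. These ratios depended on the clustering. At a cluster resolution of 0.2 the contractile class grew to 2521 cells. There MEST was at 1.66, PEG10 at 0.990, CDKN1C at 0.965, DLK1 at 0.773, NDN at 0.689, PLAGL1 at 0.652 and MEG3 at 0.422. The direction rested on the scale: contractile NPC-like cells held 2.51-fold more UMIs on average, with a median of 51586 in cluster 6 but 9624.5 in the 168 cells of cluster 9, and by UMIs per cell all but MEG3 (0.792) were higher in them, with a median of 1.98 over all genes. MEST was higher and MEG3 lower on both scales.

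Against forebrain NPC-like cells, 2 of the 7 genes were at least 2-fold higher in the 106 differentiating-progenitor-like cells, beside 10.7% of genes: CDKN1C at 13.2 (12.5 to 13.9) and PEG10 at 2.40 (2.21 to 2.61). Another 2 were at least 2-fold lower, beside 18.2% of genes: PLAGL1 at 0.367 (0.241 to 0.534) and MEST at 0.458 (0.390 to 0.534). DLK1 was at 0.520 and, by UMIs per cell, past 2-fold at 0.412, but at cluster resolutions of 0.2 and 1.0 it was at 0.764 and 0.768. MEG3 was at 0.803 (0.514 to 1.20) and NDN at 1.20 (1.02 to 1.40), and NDN turned to 0.951 by UMIs per cell. MEG3, with 24 UMIs in this class, turned to 1.39 and 1.60 at cluster resolutions of 0.2 and 1.0. At cluster resolutions of 0.2 and 1.0, where the class grew to 148 and 149 cells, PLAGL1 was at 0.815 and 0.858 and MEST at 0.640 and 0.574, so neither passed 2-fold, while CDKN1C stayed between 10.4 and 15.6 under every alternative. PEG10 was at 1.90 by UMIs per cell, under 2-fold. The precision of this class is set by 106 cells of 1 library.

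The forebrain NPC-like class was split into clusters with many (4946 cells) and few (7356 cells) mitotic genes. No member differed by 2-fold between them, beside 1.53% of genes that were higher and 1.57% that were lower in the clusters with many mitotic genes. CDKN1C, whose protein holds cells in G1, had a ratio of 0.767 (0.742 to 0.792), MEST 0.784 and PLAGL1 0.837, while MEG3 had 1.07. By UMIs per cell the first 2 were 0.951 and 0.972 and PLAGL1 turned to 1.04.

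**Figure D5:**
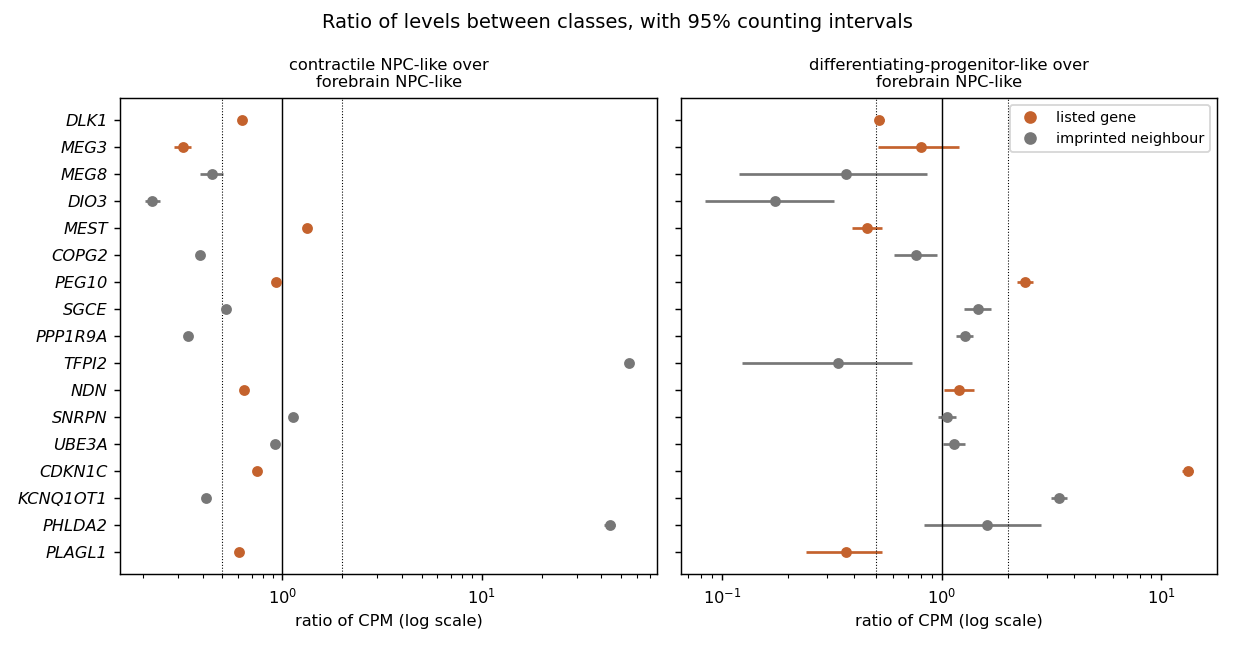
Ratio of CPM (x axis, log scale) of contractile over forebrain NPC-like cells (left) and of differentiating-progenitor-like over forebrain NPC-like cells (right) for the 7 genes in orange and 10 imprinted neighbours in grey, with 95% counting intervals and dotted lines at 2-fold. TFPI2 and PHLDA2 stood at 55.1 and 44.0 on the left, and CDKN1C at 13.2 on the right.

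The genes were then compared cell by cell in the 12283 thinned forebrain NPC-like cells. For each pair, the cells with a UMI of both were set against the number expected from the 2 shares within each cluster. None of the 21 pairs reached 1.5 times the expected number, beside 0.00243% of all pairs of genes. Almost no pair passes that cut, so the 0 does not set these genes apart. The ratios ran from 0.806 to 1.06. The 6 pairs with DLK1 could not depart from 1, since nearly every cell had a DLK1 UMI, and the median of the other 15 was 0.991. The lowest were PLAGL1 with MEG3, 146 cells against 181 expected (0.806, 0.680 to 0.947), and PLAGL1 with CDKN1C, 472 against 543 (0.869, 0.793 to 0.951). Among all these cells 21.0% of those with PLAGL1 and 26.0% of those without it had a CDKN1C UMI. DLK1 and MEG3 are expressed from opposite parental copies. Cells with MEG3 held 11.3 ± 5.02 DLK1 UMIs (SD, n = 1012 cells) and cells without it 10.7 ± 5.28 (SD, n = 11271 cells). MEG3 was found together with MEG8, a noncoding RNA further along the same strand, in 63 cells against 39.7 expected (1.59, 1.22 to 2.03), but the ratio was 1.20 after thinning to 2500 UMIs and 1.39 at 10000.

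Pearson correlations of log(1 + thinned UMIs) over 12283 cells and 10021 genes reached 0.15 with 12 genes for DLK1, 8 for MEST and 1 for PLAGL1. The highest were MT-CO2 (0.24), FBLN1 (0.22) and MT-ND3 (0.21) for DLK1, TAGLN (0.21), IER3 (0.20) and TPM1 (0.19) for MEST, and SYNE2 (0.16) for PLAGL1. No gene reached it for PEG10, CDKN1C, MEG3 or NDN. These values are small, all cells share 1 library, and they are given as a description.

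A list of 26 other genes taken as imprinted, in the same clusters as the 10, gave the surroundings, and 24 had a row. Whether each of them is imprinted in these cells was not measured. Of the 17 with at least 200 UMIs, 10 had a CPM at least 2-fold lower in the contractile class than in the forebrain class and 2 were higher, beside 22.3% and 7.36% of all genes, with a median ratio of 0.441. By UMIs per cell 2 were at least 2-fold lower and 5 higher, with a median ratio of 1.98 over all genes. The share of all genes past 2-fold was not counted on that scale. At the PEG10 locus, TFPI2, an inhibitor of serine proteases, was 55.1-fold higher (52.9 to 57.3), while PEG10 itself was at 0.932, SGCE at 0.518 and PPP1R9A at 0.338. At the CDKN1C locus, PHLDA2, which restrains placental growth, was 44.0-fold higher (41.4 to 46.8), while CDKN1C was at 0.749 and KCNQ1OT1, the long noncoding RNA of that control region, at 0.414. Members and neighbours of 1 cluster thus did not keep to 1 direction by CPM. By UMIs per cell SGCE was at 1.30 and KCNQ1OT1 at 1.04, PPP1R9A remained below 1 at 0.847, and TFPI2 and PHLDA2 were higher still.

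At the DLK1 and MEG3 locus the low values in contractile NPC-like cells extended to MEG8, 0.441 (0.387 to 0.501), and to DIO3, the thyroid hormone-inactivating deiodinase, 0.222 (0.204 to 0.242). DIO3 was lower by UMIs per cell also, at 0.557, but MEG8 was at 1.11. In differentiating-progenitor-like cells 3 of the 17 neighbours were at least 2-fold higher and 5 lower, beside 10.7% and 18.2% of genes, but the counting interval lay past 1 for only 1 of the 3 and 4 of the 5. KCNQ1OT1 was higher at 3.42 (3.14 to 3.71), as was CDKN1C, while DIO3 was at 0.175 and MEG8 at 0.368 with wide intervals. At the NDN locus SNRPN was at 1.13 in contractile NPC-like and 1.06 in differentiating-progenitor-like cells, and UBE3A at 0.915 and 1.14. MKRN3 and ATP10A of the same region were at 0.192 and 0.298 in contractile NPC-like cells, and at 0.482 and 0.747 by UMIs per cell. At the MEST locus COPG2 was at 0.385 in contractile NPC-like cells, where MEST was at 1.33.

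Another list held 15 genes taken as imprinted elsewhere in the genome, and here too imprinting in these cells was not measured. Of these, 13 had at least 200 UMIs. By CPM 0 of the 13 differed by 2-fold between contractile and forebrain NPC-like cells, beside 22.3% of genes that were lower and 7.36% that were higher. By UMIs per cell 9 of the 13 were at least 2-fold higher in contractile NPC-like cells, where the median ratio over all genes was 1.98. The share of all genes past 2-fold was not counted on that scale, so the 9 are not set apart from genes at large. GNAS, which encodes a G protein subunit, was the most abundant at 1208 CPM, and IGF2R, the receptor that clears IGF2, was at 108 CPM. The ratio between contractile and forebrain NPC-like cells was 1.44 for GNAS, 1.28 for IGF2R, 0.993 for INPP5F, 0.846 for GRB10 and 0.820 for BLCAP. In differentiating-progenitor-like cells BLCAP was at 3.36 (2.98 to 3.79) and NAP1L5 at 5.21 (3.63 to 7.26), and DLX5 at 0.203, the last 2 named after their values were seen. Extra-Poisson variation of 1 or more was reached by 5 of the 10 neighbours and by 1 of the 11 genes elsewhere (DLX5) with a thinned mean of at least 0.05, beside 11.7% of genes. DLX5 lies at chr7:97020396-97024950, past PPP1R9A on the chromosome of PEG10, so the split between the 2 lists rests on where it was placed.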

How the data were processed

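The authors deposited raw counts (UMIs per gene and barcode), made with Cell Ranger 7.0.1 at default settings on GRCh38. That version counts intronic reads by default. The gene annotation behind the counts is not given in the sources used here. The submitters' notes also name Seurat 4.4.0. Barcodes were filtered as in the study's methods (2000 to 10000 genes, mitochondrial share below 0.1 read as a fraction). Counts were scaled to 10000 per cell, and 2000 variable genes, 30 principal components and 20 neighbours were clustered by Leiden at resolution 0.5 (scanpy 1.11.5). A class needed at least 3 of its markers at 20 CPM and 3-fold over the other clusters, or, for forebrain NPC-like cells, 3 forebrain and 3 progenitor markers at 50 CPM. Doublets were scored with Scrublet, whose threshold of 0.402 marked 222 barcodes. None was removed, and an alternative removed the 8% with the highest scores. Intervals are exact (Poisson, binomial or conditional). Scripts were checked on simulated counts. Other imprinted genes were named at 5 CPM (same clusters) or 50 CPM (elsewhere) or past 2-fold. Genome annotation was GENCODE 44, and promoter sequences came from RefSeq. The genes, lists and thresholds were chosen with earlier results of these data known.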

Additional observations from a re-analysis of the deposited data

Results flagged for a closer look

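The imprinted genes also had UMIs in the 801 barcodes outside the quality filter, which no comparison above used. There the levels were 1163 CPM for DLK1, 201 CPM for MEST, 138 CPM for PEG10, 54.5 CPM for NDN, 42.8 CPM for CDKN1C, 40.9 CPM for PLAGL1, 9.01 CPM for MEG3 and 0.770 CPM for IGF2. All 10 IGF2 UMIs of these barcodes lay in the 94 barcodes above 10000 genes.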

How the results depend on the processing

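Of 47 recomputed counts, 41 stayed within 1.5 times the main one. These included the count of pairs at 1.5 times or more, which was 0 under every setting, and counts of genes above a set level or share of cells, not given above. The 41 are thus no measure of how steady the class comparisons were. Of the values of single genes, 92 left the 95% counting interval of the reported value (or, for extra-Poisson variation, moved by over 10%) and 99 did not. Shares of cells with a UMI followed the thinning depth, and MEG3 went from 4.06% at 2500 UMIs to 14.1% at 10000. By UMIs per cell in place of CPM, 2 genes were at least 2-fold higher (MEST and PEG10) and 0 at least 2-fold lower in contractile NPC-like cells. Over all genes the median on that scale was 1.98 in the contractile class. In differentiating-progenitor-like cells 1 (CDKN1C) was at least 2-fold higher by UMIs per cell and 3 (DLK1, MEST and PLAGL1) at least 2-fold lower. How many of all genes passed 2-fold by UMIs per cell was not counted for either class. These counts are thus not set apart from genes at large. At a threshold of 1.5-fold, 4 of the 7 genes with at least 200 UMIs were lower by CPM in contractile NPC-like cells. The share of all genes past 1.5-fold was not counted, and their median ratio was 0.788. At cluster resolutions of 0.2 and 1.0, 0 were at least 2-fold lower in differentiating-progenitor-like cells. Of the imprinted neighbours past 2-fold in contractile NPC-like cells by CPM, KCNQ1OT1, MEG8 and RTL1 turned to 1.04, 1.11 and 1.17 by UMIs per cell. Leaving imprinted genes out of the clustering, or removing the highest doublet scores, changed none of the counts over the 10 genes by over 1.5 times. The class ratios of the other imprinted genes, TFPI2 and PHLDA2 among them, were not recomputed under either change. No replicate could be left out, and no paired analysis was possible because the data came from 1 library. Shares within cluster 11 rested on 105 cells, and IGF2 on 36 UMIs.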
